A study of Mus musculus with 9 samples.

Results

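The 10 genes described here were chosen by name as regulatory T cell and interleukin-2 (IL-2) receptor genes: 4 cytokine receptor subunits (Il2ra, Il2rb, Il2rg and Il7r) and 6 regulators of T cells (Foxp3, Ctla4, Icos, Cd28, Pdcd1 and Lag3). Each symbol matched 1 of the 45535 rows that carry a gene symbol, and all 10 passed the filter on low values, a mean normalized count of at least 10, which left 18202 genes for the test. The samples were bead-isolated lung dendritic cells with the integrin CD103 from C57/BL6j mice whose lungs were taken after 7 days of bleomycin, a drug that injures the lung and leads to fibrosis. The group before culture (5 samples) was taken directly after isolation, and the group after culture (4 samples) was kept ex vivo for 18 h (RPMI, 10% FBS, 1% pen/strep). All samples share bleomycin and the magnetic bead isolation, and the extraction text speaks of RNA of the whole lung where the cell type label gives CD103+ DCs. How many mice went into each sample is not given, nor that samples of a group are separate animals, so p-values measure only the spread between these samples, which may be technical.

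The IL-2 receptor is assembled from an alpha chain (CD25, Il2ra) that raises its affinity, a beta chain (CD122, Il2rb) shared with the receptor for IL-15, and the common gamma chain (Il2rg), which also serves the receptors for IL-4, IL-7, IL-9, IL-15 and IL-21. The IL-7 receptor pairs the common gamma chain with its own alpha chain (CD127, Il7r). Regulatory T cells depend on the transcription factor Foxp3, carry high levels of CD25 and CTLA-4, and restrain other T cells and dendritic cells. Several of these genes are not limited to T cells: CD25 is also found on activated dendritic cells, and the common gamma chain on most lymphocytes and many myeloid cells.

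Depth ran from 14.7 to 28.8 M reads in named genes per sample before and from 26.0 to 35.3 M after culture. Each read counted for 0.837 to 1.79 on the normalized scale before and for 0.758 to 0.910 after culture. Markers of the labelled cell type were present in every sample. Itgae, which encodes CD103, had normalized counts of 15948 to 20174 before and 1281 to 2034 after culture. Of 9 markers of type 1 conventional dendritic cells 6 were lower and 3 higher after culture, while all 8 markers of mature dendritic cells were higher (limma, Benjamini-Hochberg adjusted p under 0.05). T cell transcripts were present too. The 18 T cell markers summed to normalized counts of 18986 to 22004 before and 19767 to 26361 after culture, and 3 of them rose, 7 fell and 8 did not pass the test. The 8 NK cell markers summed to 2706 to 4901 before and 940.1 to 1464 after culture, and 7 of them fell. The 7 markers of group 2 innate lymphoid cells summed to 3310 to 3956 before and 3782 to 4844 after culture. Of these, 2 rose, 2 fell and 3 did not pass the test (median log2 fold change −0.06). Neutrophil and endothelial markers fell as well, 5 of 5 tested in each list, and the mast cell and basophil markers summed to at most 55.5 in any sample. The defining T cell markers Cd3d, Cd3e and Cd3g were above 0 in every sample, and the part that other cell types had in the results below was not tested. In bulk RNA, fewer cells of a type and less RNA per cell cannot be told apart.

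Culture split the 10 genes. Il7r, Pdcd1, Il2ra and Il2rg were higher after culture, Lag3, Ctla4 and Il2rb were lower, and Foxp3, Icos and Cd28 did not pass the test. With 7 of 10 called, the share was close to that of all genes: 68.8% of the 18202 tested genes passed an adjusted p of 0.05 in limma (34.2% higher and 34.6% lower). A change of at least 2-fold on the log2 scale was met by 6 of the 10 genes, against 32.7% of all tested genes. The values of the groups did not overlap for 7 of the 10, against 57.3% of all tested genes (28.7% higher and 28.6% lower). The edgeR quasi-likelihood test on whole reads called the same 7 genes in the same directions, against 69.0% of all tested genes. The median log2 fold change of the 10 was 0.0011 and that of all tested genes 0.0065. Each log2 fold change is after minus before culture on the scale of log2(normalized count + 1), and a fold is the ratio of the group means. The 7 calls kept their direction and stayed past the threshold in all 23 alternative analyses.

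**Figure D1:**
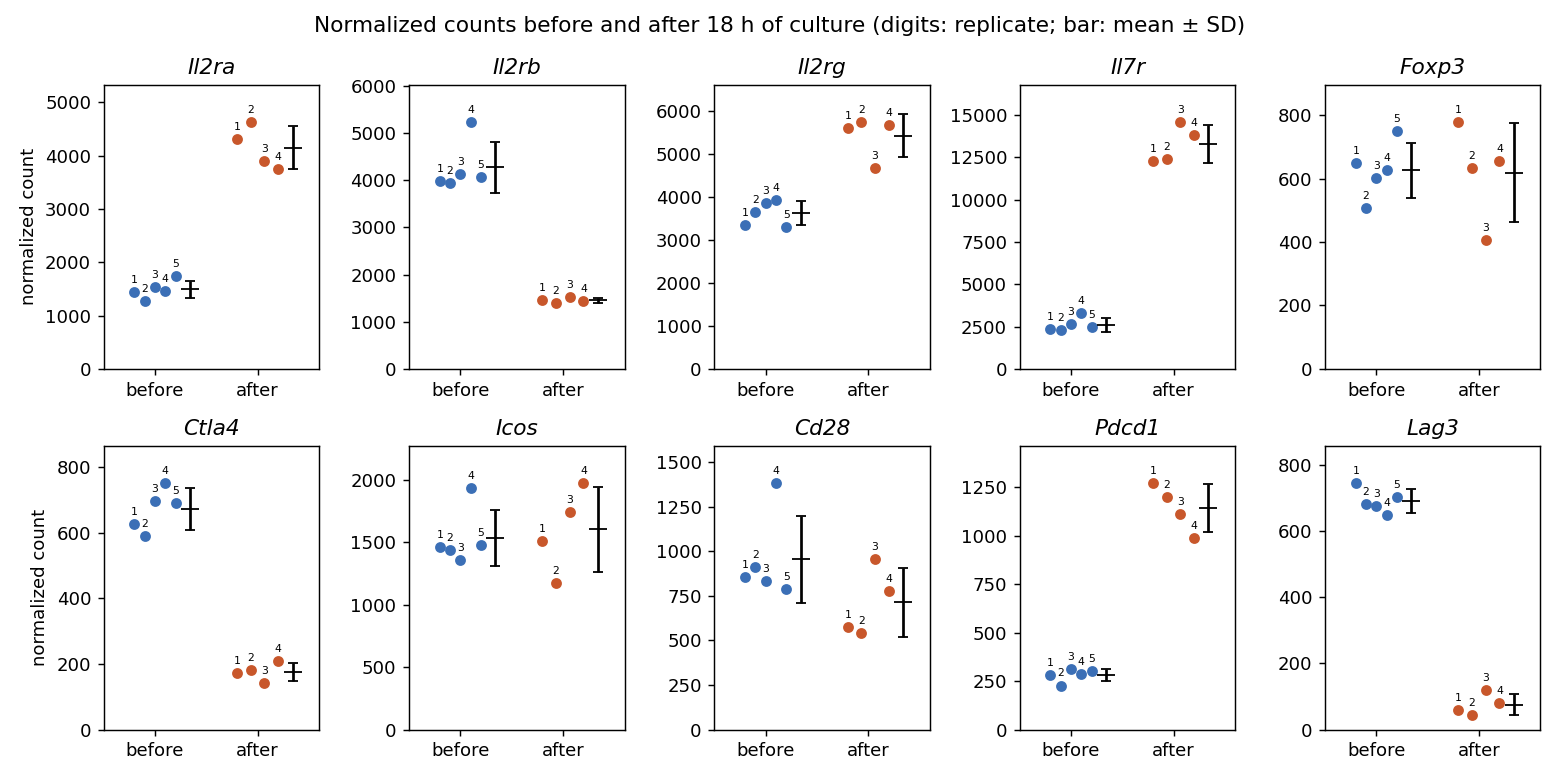
Normalized counts (vertical axes, from 0) of the 10 genes in the 5 samples before and the 4 samples after 18 h of culture; digits give the replicate and bars the mean ± SD. Il7r, Il2ra, Il2rg and Pdcd1 lie higher after culture and Il2rb, Ctla4 and Lag3 lower without overlap, while the groups overlap for Foxp3, Icos and Cd28.

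Among the receptor subunits, the alpha chains rose most. Il7r, on chromosome 15 (GRCm38, 9505788 to 9530176, minus strand), had normalized counts of 2350, 2277, 2678, 3298 and 2454 in replicates 1 to 5 before culture and 12286, 12418, 14584 and 13814 in replicates 1 to 4 after culture. Every cultured sample was thus above every uncultured one. The mean rose from 2611 ± 412 to 13276 ± 1113 (SD, n = 5 and n = 4), a 5.08-fold difference (log2 fold change 2.35, SE 0.105, limma adjusted p = 3.84e-10), the largest rise among the 10 genes.

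Il2ra, on chromosome 2 (11642807 to 11693193, plus strand), had normalized counts of 1444, 1278, 1535, 1460 and 1740 before and 4318, 4634, 3905 and 3754 after culture. The groups did not overlap, and the mean rose 2.78-fold from 1491 ± 168 to 4153 ± 400 (SD, n = 5 and n = 4; log2 fold change 1.48, SE 0.0938, limma adjusted p = 1.15e-08). The transcription start windows of Il7r and Il2ra, the 2 receptor subunits that rose by more than 2-fold, are shown for their sequence (RefSeq, GRCm38.p6, 250 bases before to 50 after the start, 5′ to 3′ on the strand of the gene). Capitals mark matches, on either strand, to any of the motifs TTCNNNGAA (STAT), TGANTCA (AP-1), TGGAAA (NFAT), TGTGGT (RUNX) and a 10-base NF-kB motif.
Il7r, chr15:9529827-9530126, minus strand: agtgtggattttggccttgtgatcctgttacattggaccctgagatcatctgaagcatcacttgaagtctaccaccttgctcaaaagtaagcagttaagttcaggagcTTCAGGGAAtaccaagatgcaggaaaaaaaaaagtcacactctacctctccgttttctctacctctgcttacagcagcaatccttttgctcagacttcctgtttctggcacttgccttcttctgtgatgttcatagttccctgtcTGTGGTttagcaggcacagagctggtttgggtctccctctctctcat
Il2ra, chr2:11642542-11642841, plus strand: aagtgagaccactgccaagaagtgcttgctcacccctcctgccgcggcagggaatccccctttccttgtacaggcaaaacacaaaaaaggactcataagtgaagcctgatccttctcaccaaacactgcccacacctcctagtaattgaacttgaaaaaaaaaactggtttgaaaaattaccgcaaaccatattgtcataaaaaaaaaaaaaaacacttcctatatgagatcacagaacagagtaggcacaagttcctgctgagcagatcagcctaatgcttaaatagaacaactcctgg
With the first transcribed base counted as 1, the Il7r window held a STAT motif from base −142 and a RUNX motif from base 4. The Il2ra window held no match to the 5 motifs as spelled here. Other forms of these motifs, including other NF-kB forms, were not searched, so their absence is not shown. The unmarked Il2ra window contains the stretch gggaatcccc, which the NF-kB spelling used here does not match. Whether that stretch is an NF-kB site was not tested. Of 32851 windows of this length, 8.30% held the STAT motif, 16.8% the RUNX motif, 21.4% the NFAT motif, 7.81% the AP-1 motif and 1.63% the NF-kB motif. Windows were given for 6 of the 10 genes (7 windows, Foxp3 having 2), and not for Icos, Cd28, Lag3 and Il2rb.

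The beta chain moved the other way. Il2rb, on chromosome 15 (78479256 to 78495271, minus strand), had normalized counts of 3974, 3948, 4139, 5235 and 4078 before and 1465, 1390, 1522 and 1435 after culture. Replicate 4 before culture was the highest, and all 4 cultured samples lay well below the lowest uncultured one. The mean fell from 4275 ± 543 to 1453 ± 55.6 (SD, n = 5 and n = 4), a 2.94-fold difference (log2 fold change −1.55, SE 0.0870, limma adjusted p = 3.51e-09). NK cells, which carry CD122, had lower markers after culture in 7 of 8 cases (median log2 fold change −2.24), and their part in the fall of Il2rb was not tested.

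Il2rg, the shared gamma chain on chromosome X (101264378 to 101268255, minus strand), had normalized counts of 3352, 3647, 3846, 3912 and 3301 before and 5588, 5734, 4663 and 5671 after culture. Replicate 3 was the lowest of the cultured samples, but still above all samples before culture. The mean rose from 3611 ± 279 to 5414 ± 504 (SD, n = 5 and n = 4; log2 fold change 0.58, SE 0.0837, limma adjusted p = 3.38e-05). Of the 50-base windows of its longest transcript, 42.0% also occur in Gm20489, an annotated gene that overlaps it on the same strand, so its count is uncertain where the counting could split reads between them; for the other 9 genes this share was at most 3.22%, although Ctla4, Icos and Il2ra each also overlap an annotated gene on their own strand.

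Because the subunits moved unequally, their proportions differed between the groups. On the scale of normalized counts per kilobase of longest transcript, the ratio of Il2ra to Il2rb was 0.345, 0.308, 0.353, 0.265 and 0.406 before culture and 2.80, 3.17, 2.44 and 2.49 after culture. The alpha chain was therefore below the beta chain in every sample before culture and above it in every sample after. The ratio of Il2rb to the gamma chain was 0.471 ± 0.0438 before and 0.108 ± 0.0151 after culture, and that of Il7r to the gamma chain 0.340 ± 0.0378 and 1.17 ± 0.211 (SD, n = 5 and n = 4). These ratios are transcript levels and were not tested further.

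Per kilobase, the order of levels before culture was Il2rg, Il2rb, Il7r, Icos, Ctla4, Lag3, Il2ra, Cd28, Foxp3 and Pdcd1, from 2163 ± 167 for Il2rg down to 146 ± 16.9 for Pdcd1 (SD, n = 5). The ranges of neighbours overlapped from Ctla4 through Pdcd1, so the order of adjacent genes there is not resolved. Ctla4, Lag3 and Il2ra still lay above Foxp3 and Pdcd1 without overlap. After culture the order was Il7r, Il2rg, Il2ra, Pdcd1, Icos, Il2rb, Cd28, Foxp3, Ctla4 and Lag3, from 3750 ± 315 for Il7r to 37.9 ± 16.2 for Lag3 (SD, n = 4). There, neighbours overlapped only between Pdcd1 and Icos, Icos and Il2rb, Cd28 and Foxp3, and Foxp3 and Ctla4. With the mean transcript length in place of the longest, Il2ra ranked 5 before culture in place of 7, with Ctla4 and Lag3 each 1 rank lower, and Icos and Pdcd1 changed places after culture.

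**Figure D2:**
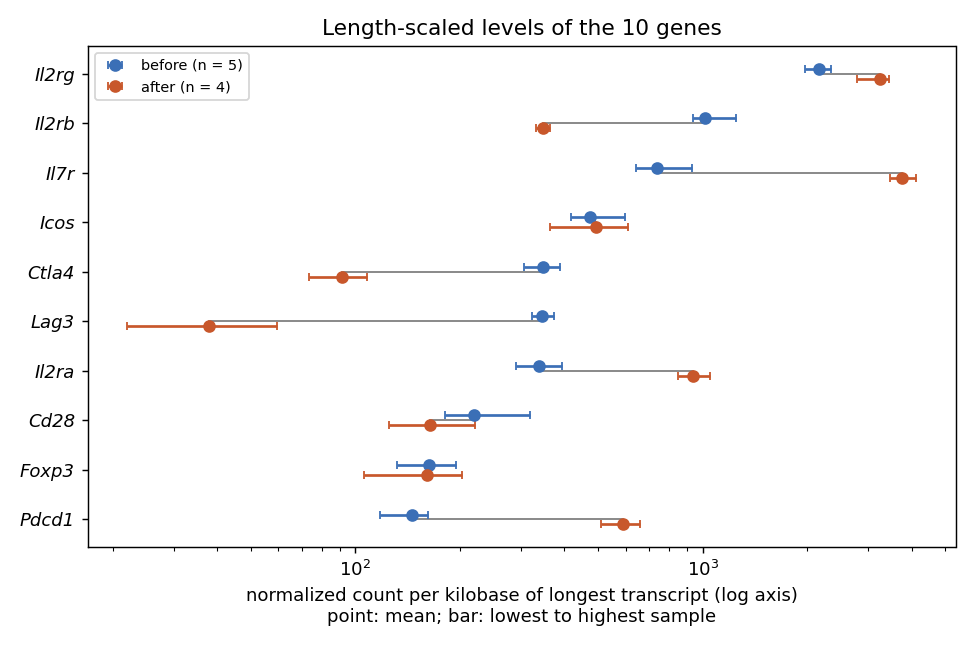
Normalized count per kilobase of longest transcript (horizontal log axis) of the 10 genes before (n = 5) and after (n = 4) culture; points are means and bars run from the lowest to the highest sample. Il7r and Il2ra move up past Il2rb, and Lag3 moves from 345 to 37.9.

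Foxp3, the transcription factor that defines regulatory T cells, lies on chromosome X (7573644 to 7595245, plus strand). Its normalized counts were 648, 506, 600, 627 and 748 before and 778, 633, 405 and 656 after culture. The groups overlapped widely, and the highest and the lowest values were both in cultured samples, replicates 1 and 3. The means were 626 ± 87.3 and 618 ± 156 (SD, n = 5 and n = 4), and the difference did not pass the test (log2 fold change −0.046, SE 0.164, limma adjusted p = 0.818). Its sign turned in some alternatives, with values from −0.17 to 0.29. Foxp3 overlaps Flicr on its own strand and Ppp1r3f, Ccdc22 and Gm36995 on the other strand, and without known strand in the counting, reads of such overlaps cannot be assigned with certainty.

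Ctla4 encodes the inhibitory receptor that competes with CD28 for CD80 and CD86. It lies on chromosome 1 (60887000 to 60915832, plus strand), and its normalized counts were 625, 590, 696, 752 and 691 before and 173, 183, 142 and 208 after culture. No cultured sample came near the uncultured range. The mean fell from 671 ± 63.6 to 177 ± 27.4 (SD, n = 5 and n = 4), a 3.80-fold difference (log2 fold change −1.93, SE 0.120, limma adjusted p = 9.29e-09). The difference between the changes of Foxp3 and Ctla4, both highly expressed in regulatory T cells, was not tested. Their start windows are shown side by side with the same marking, as one gene was called and the other was not; for Foxp3, the window of the second start in the table is given.
Foxp3, chrX:7580233-7580532, plus strand: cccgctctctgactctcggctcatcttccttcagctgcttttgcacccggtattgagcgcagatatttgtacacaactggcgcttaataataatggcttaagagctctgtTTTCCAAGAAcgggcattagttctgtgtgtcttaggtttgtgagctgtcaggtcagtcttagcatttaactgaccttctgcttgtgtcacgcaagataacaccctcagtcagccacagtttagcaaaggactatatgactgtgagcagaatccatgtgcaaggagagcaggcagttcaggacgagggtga
Ctla4, chr1:60908775-60909074, plus strand: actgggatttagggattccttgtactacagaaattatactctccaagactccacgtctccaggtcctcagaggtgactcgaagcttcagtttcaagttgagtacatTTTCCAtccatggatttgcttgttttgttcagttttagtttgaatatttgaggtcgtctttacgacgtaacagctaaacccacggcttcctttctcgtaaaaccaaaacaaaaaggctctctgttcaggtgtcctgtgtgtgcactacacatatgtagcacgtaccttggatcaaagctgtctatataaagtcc
The Foxp3 window held a STAT motif from base −139 and, overlapping it, an NFAT motif on the opposite strand from base −140. The Ctla4 window held an NFAT motif on the opposite strand from base −144. The other Foxp3 window held no match to the 5 motifs.

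Cd28 and Icos, the costimulatory receptors of the same family, flank Ctla4 on the plus strand of chromosome 1 (Cd28 at 60716800 to 60773359, Icos at 60977927 to 61000320). Cd28 had normalized counts of 858, 913, 835, 1384 and 788 before and 574, 544, 959 and 775 after culture. Replicate 4 before culture stood far above the others, replicate 3 after culture overlapped the uncultured range, and the means were 956 ± 244 and 713 ± 193 (SD, n = 5 and n = 4). The difference did not pass the test (log2 fold change −0.43, SE 0.184, limma adjusted p = 0.0524), but it did in 8 of the 23 alternatives, among them the analysis without replicate 3 after culture (−0.58, adjusted p = 0.00861) and that without replicate 5 before culture (−0.49, adjusted p = 0.0415), and with levels adjusted for length and GC content it was −0.84 (adjusted p = 4.29e-04). The 8 alternatives are not independent of each other. They include the fit without replicate 4 before and replicate 3 after culture, which was added after seeing the data. The replicate block by title number gave the same estimate as leaving out replicate 5 before culture (−0.49). With a pseudocount of 8 the limma adjusted p was 0.0498. Leaving out each of the 9 samples in turn gave an adjusted p from 0.00861 (without replicate 3 after culture) to 0.157 (without replicate 1 after culture).

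Icos had normalized counts of 1464, 1440, 1356, 1933 and 1479 before and 1513, 1176, 1746 and 1977 after culture. The cultured samples spanned the whole uncultured range on both sides. The means were 1535 ± 228 and 1603 ± 342 (SD, n = 5 and n = 4), and the difference did not pass the test (log2 fold change 0.048, SE 0.140, limma adjusted p = 0.774). Among the 3 neighbouring genes, Ctla4 was therefore the only one called in the main analysis. The per-kilobase ratio of Ctla4 to Cd28 was 1.64, 1.45, 1.87, 1.22 and 1.97 before and 0.678, 0.755, 0.333 and 0.605 after culture, below 1 in all 4 cultured samples.

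Pdcd1 and Lag3, which encode the inhibitory receptors PD-1 and LAG-3, moved in opposite directions. Pdcd1, on chromosome 1 (94038305 to 94052553, minus strand), had normalized counts of 281, 228, 312, 285 and 303 before and 1274, 1198, 1110 and 987 after culture. The lowest cultured sample was above the highest uncultured one, and the mean rose 4.06-fold from 282 ± 32.7 to 1142 ± 123 (SD, n = 5 and n = 4; log2 fold change 2.02, SE 0.110, limma adjusted p = 2.65e-09). Lag3, a receptor that binds MHC class II, lies on chromosome 6 (124904361 to 124911705, minus strand) and had normalized counts of 746, 681, 677, 647 and 703 before and 60.1, 44.0, 119 and 79.8 after culture. The uncultured samples lay close together and the cultured ones spread more widely, from replicate 2 to replicate 3, yet the groups were far apart. The mean fell from 691 ± 36.7 to 75.8 ± 32.5 (SD, n = 5 and n = 4), a 9.12-fold difference (log2 fold change −3.26, SE 0.215, limma adjusted p = 1.66e-08), the largest fall among the 10 genes.

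To see the genes against the T cell receptor complex, each was also expressed relative to the summed normalized count of Cd3d, Cd3e and Cd3g, with means of 2292 ± 164 and 2622 ± 317 (SD, n = 5 and n = 4). On this scale 8 of the 10 genes were called, 4 higher and 4 lower, against 61.6% of all tested genes (23.3% higher and 38.3% lower, with a median log2 fold change of −0.18 over all genes). Per 100 Cd3 counts, Il7r had 114 ± 11.5 before and 508 ± 30.6 after culture and Il2ra 65.5 ± 10.6 and 161 ± 35.0. Lag3 had 30.3 ± 3.29 and 2.81 ± 0.876 and Ctla4 29.3 ± 2.62 and 6.84 ± 1.49 (SD, n = 5 and n = 4). Cd28 was the added call (log2 fold change −0.62, SE 0.147, limma adjusted p = 0.00188) and was not called with Trac, Trbc1 and Trbc2 as the denominator (−0.19, adjusted p = 0.283) or the mean of all T cell markers (−0.35, adjusted p = 0.0554). Il2rg was 0.39 (adjusted p = 0.0216) and was not called without replicate 1, 2 or 4 after culture or replicate 1 before culture (adjusted p of 0.0701, 0.0547, 0.0509 and 0.0516). Foxp3, at 27.5 ± 5.03 and 24.2 ± 7.64 per 100 Cd3 counts (log2 fold change −0.23, limma adjusted p = 0.346), and Icos, at 66.8 ± 5.94 and 60.8 ± 8.24 (−0.14, adjusted p = 0.341), were not called. With either other denominator both had a positive sign and were again not called. The other 6 genes kept their calls in all 11 alternatives on this scale, and 7 of the 10 genes had no overlap between groups, against 48.4% of all tested genes.

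**Figure D3:**
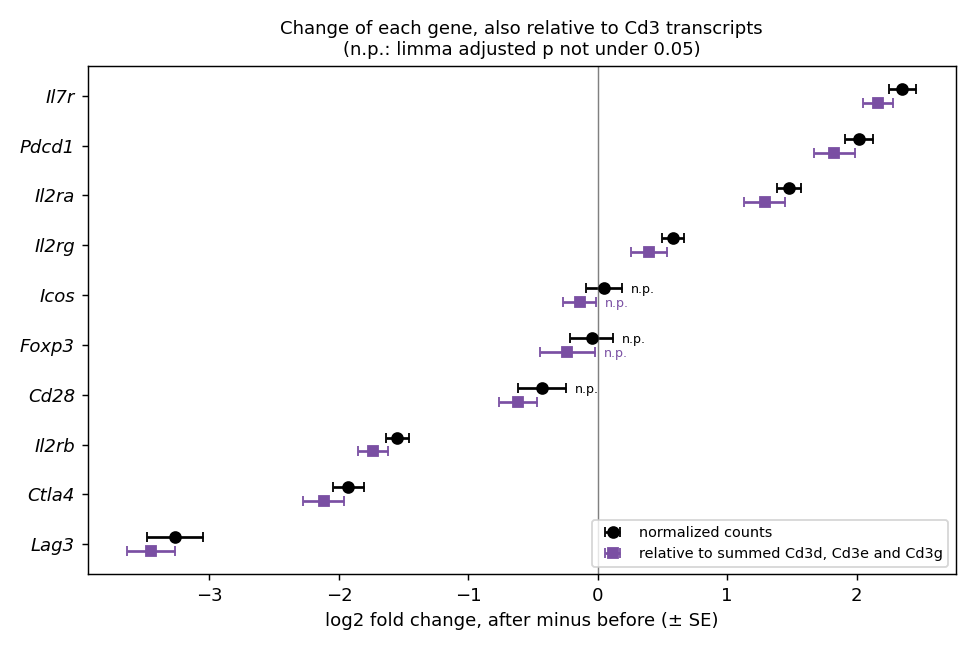
Log2 fold change after minus before culture (horizontal axis, ± SE) of the 10 genes from normalized counts (circles) and relative to the summed Cd3 genes (squares); n.p. marks values that did not pass an adjusted p of 0.05 in limma. Cd28 is the gene whose call differs between the scales, at −0.43 and −0.62.

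Other receptor subunits and the ligands of these receptors were read from fixed lists. All 5 other receptor chains of the family passed the test, 3 higher and 2 lower (median log2 fold change 0.51). Il15ra, the IL-15 receptor alpha chain, rose 10.2-fold from 270 ± 15.0 to 2758 ± 606, and Il21r rose from 3890 ± 403 to 5519 ± 322. Crlf2, the receptor chain for TSLP that pairs with the product of Il7r, fell from 1954 ± 430 to 690.5 ± 98.0, and Il4ra fell from 10283 ± 898 to 7188 ± 494. With levels adjusted for length and GC content, the log2 fold change of Crlf2 was −0.64 in place of −1.48 (limma adjusted p = 1.26e-04), and Il4ra was not called (−0.12, adjusted p = 0.0980). Of the 7 cytokine ligands only 3 passed the filter, and 2 of these rose: Il15 from 168 ± 18.7 to 1464 ± 271 (8.70-fold) and Il7 from 23.1 ± 5.62 to 133 ± 16.3 (5.76-fold). Il4 ranged from 11.4 to 23.3 before and from 14.1 to 28.1 after culture and did not pass (limma adjusted p = 0.419; SD, n = 5 and n = 4 throughout). Il2 itself, named here after its values were seen, was at 2.47 to 9.21 before and 1.52 to 9.72 after culture and was not tested, and Il9 had 0 reads in all 9 samples.

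Ligands of the T cell regulators were called in all 6 tested cases, 4 higher and 2 lower (median log2 fold change 1.12). Cd274 and Pdcd1lg2, the ligands of PD-1, rose with their receptor, Cd274 from 3604 ± 253 to 15146 ± 430 and Pdcd1lg2 from 387 ± 72.1 to 2324 ± 128. Lgals3, a lectin reported to bind LAG-3, rose from 12208 ± 1745 to 42520 ± 11114. Icosl, the ligand of ICOS, fell from 3221 ± 249.5 to 1834 ± 342. Of the ligands shared by CD28 and CTLA-4, Cd86 fell from 5620 ± 903 to 4083 ± 567 and Cd80 was called higher (SD, n = 5 and n = 4 throughout).

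Of 12 genes of IL-2 receptor signalling, 4 rose, 6 fell and 2 did not pass (median log2 fold change −0.23). Socs2, a feedback inhibitor of cytokine signalling, rose 5.76-fold from 912 ± 75.5 to 5248 ± 361, while Socs3 of the same family fell 13.4-fold from 19059.9 ± 2672 to 1420 ± 313. Pim1, a kinase, fell 3.30-fold and the survival gene Bcl2 fell 2.18-fold. The transcription factors Stat5a (4426 ± 268 to 5994 ± 289) and Stat5b (3419 ± 90.9 to 4405 ± 135) rose less. Jak1, the kinase bound to the beta chain, rose from 9476 ± 146 to 10935 ± 628 (SD, n = 5 and n = 4 throughout), and Jak3, the kinase bound to the gamma chain, was called lower. The call of Jak1 (limma adjusted p = 0.0138) was lost with a replicate block by title number (adjusted p = 0.0603), and the adjusted p reached 0.0497 without replicate 4 after culture.

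The 18 other genes of regulatory T cells included 12 that fell, 5 that rose and 1, Ikzf2, that did not pass (median log2 fold change −0.95). Areg, a growth factor, fell 8.86-fold from 426 ± 64.6 to 48.1 ± 11.6 and Entpd1, the ectoenzyme CD39, 3.07-fold from 5181 ± 372 to 1686 ± 424. The genes that rose were Tnfrsf9 (596 ± 55.2 to 4434 ± 456), Ikzf4 (452 ± 47.0 to 1469 ± 218), Tnfrsf4 (538 ± 54.3 to 873 ± 114), Prdm1 (1027 ± 43.3 to 1410 ± 158) and Nrp1 (3378 ± 407 to 4327 ± 866, with overlapping groups). Many of these genes are also expressed outside regulatory T cells. Nrp1 was not called in 5 of the 9 fits that left out 1 sample (without replicates 1, 2 or 4 after or replicates 1 or 5 before culture, adjusted p from 0.0750 to 0.112) and had a log2 fold change of −0.03 with levels adjusted for length and GC content.

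Among 6 other inhibitory receptors, 3 fell, 2 rose and Vsir did not pass (median log2 fold change −1.22). Cd244a fell 10.0-fold (1948 ± 161 to 195 ± 24.6), Btla 9.65-fold (4259 ± 413 to 441 ± 92.7) and Havcr2 4.84-fold (3799 ± 300 to 784 ± 130). Cd160 (69.4 ± 5.79 to 156 ± 46.9) and Cd96 (301 ± 60.1 to 599 ± 134) rose (SD, n = 5 and n = 4 throughout). Like Pdcd1 and Lag3, these receptors changed in both directions.

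**Figure D4:**
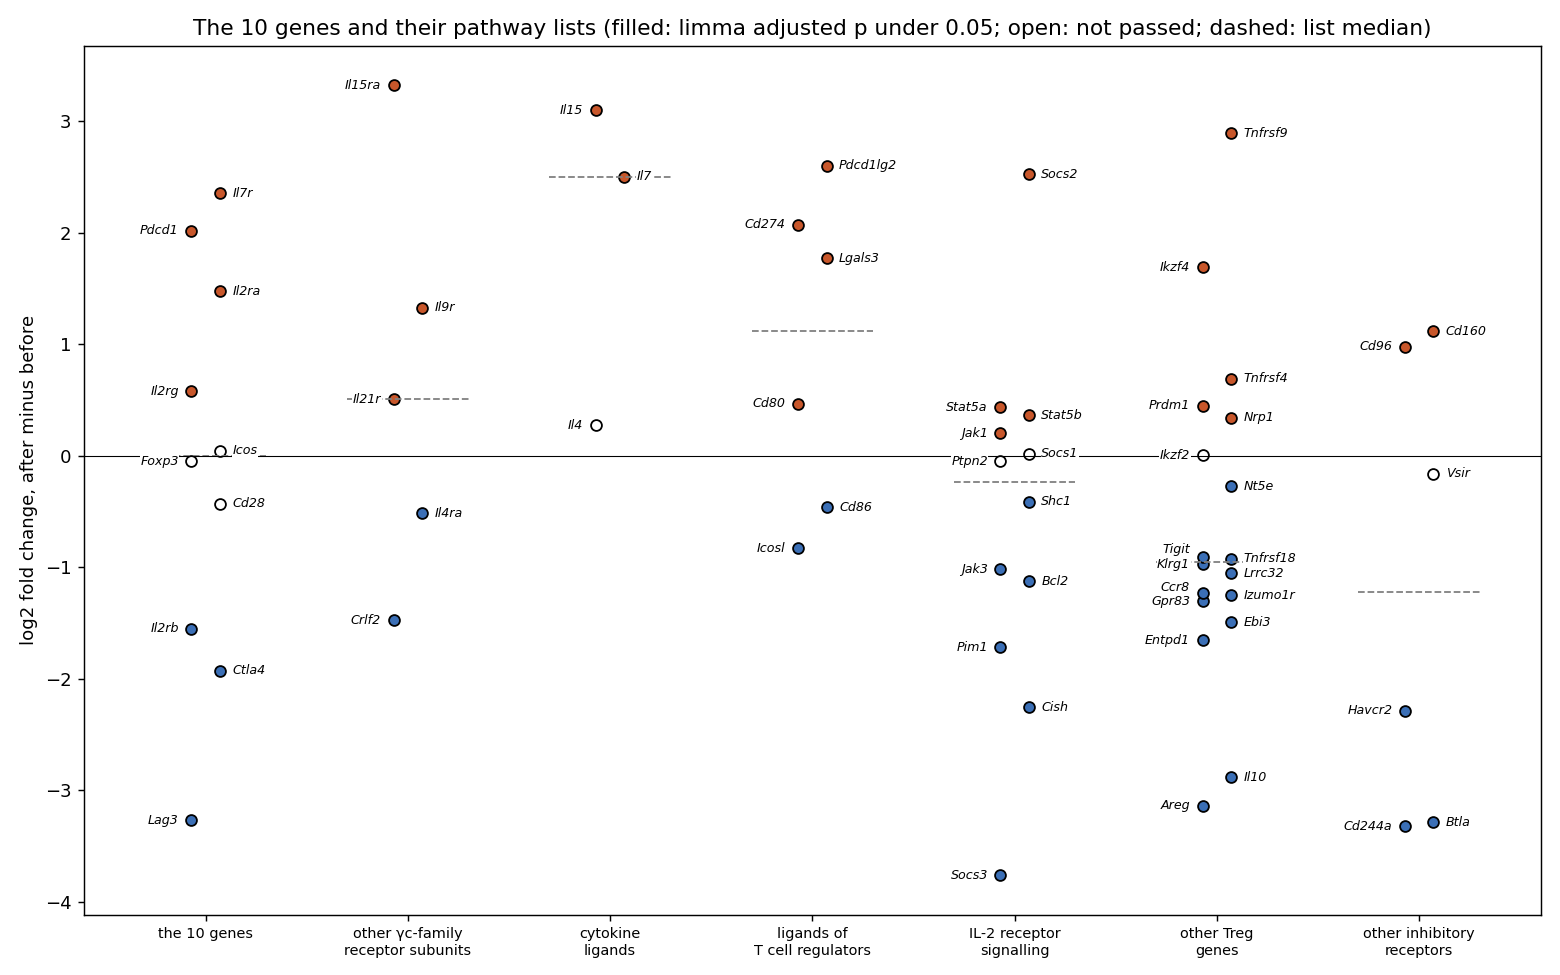
Log2 fold change after minus before culture (vertical axis) of the 10 genes and of the tested genes of 6 pathway lists; filled points passed a limma adjusted p of 0.05, open points did not, and dashed lines are list medians. The medians run from −1.22 for other inhibitory receptors to 2.50 for the cytokine ligands, of which 3 were tested.

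Before culture, most of the extremes of the 10 genes fell in replicates 4 and 2. Replicate 4 before culture had the highest value of its group for 6 of the 10 genes (Ctla4, Icos, Cd28, Il2rb, Il2rg and Il7r), where 29.2% of all tested genes had their highest value. Replicate 2 before culture had the lowest value for 6 (Foxp3, Ctla4, Pdcd1, Il2ra, Il2rb and Il7r), where 15.7% of all tested genes had their lowest. In replicate 4 the summed NK cell markers were 4901, against 2706 to 2997 in the other 4. Its summed macrophage markers were 11111, against 16590 to 23444. The summed T cell markers were highest there too, at 22004, against 18986 to 19851. After culture the counts were near those of all genes. Replicate 3 had the highest value for 4 of the 10 genes (Cd28, Lag3, Il2rb and Il7r) and the lowest for 3 (Foxp3, Ctla4 and Il2rg), against 30.4% and 33.7% of all tested genes. Replicate 2 had the highest for 2 (Il2ra and Il2rg) and the lowest for 4 (Icos, Cd28, Lag3 and Il2rb), against 33.0% and 28.3%. Replicate 3 had the highest NK cell sum (1464, against 940.1 to 1101) and the lowest macrophage sum (8472, against 12799 to 19434). It also had the highest T cell sum (26361, against 19767 to 23206). The part of these cell types in the spread was not tested. Without replicate 4 before and replicate 3 after culture, 4 genes were higher and 4 lower, Cd28 being the addition (log2 fold change −0.44, limma adjusted p = 0.00381).

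**Figure D5:**
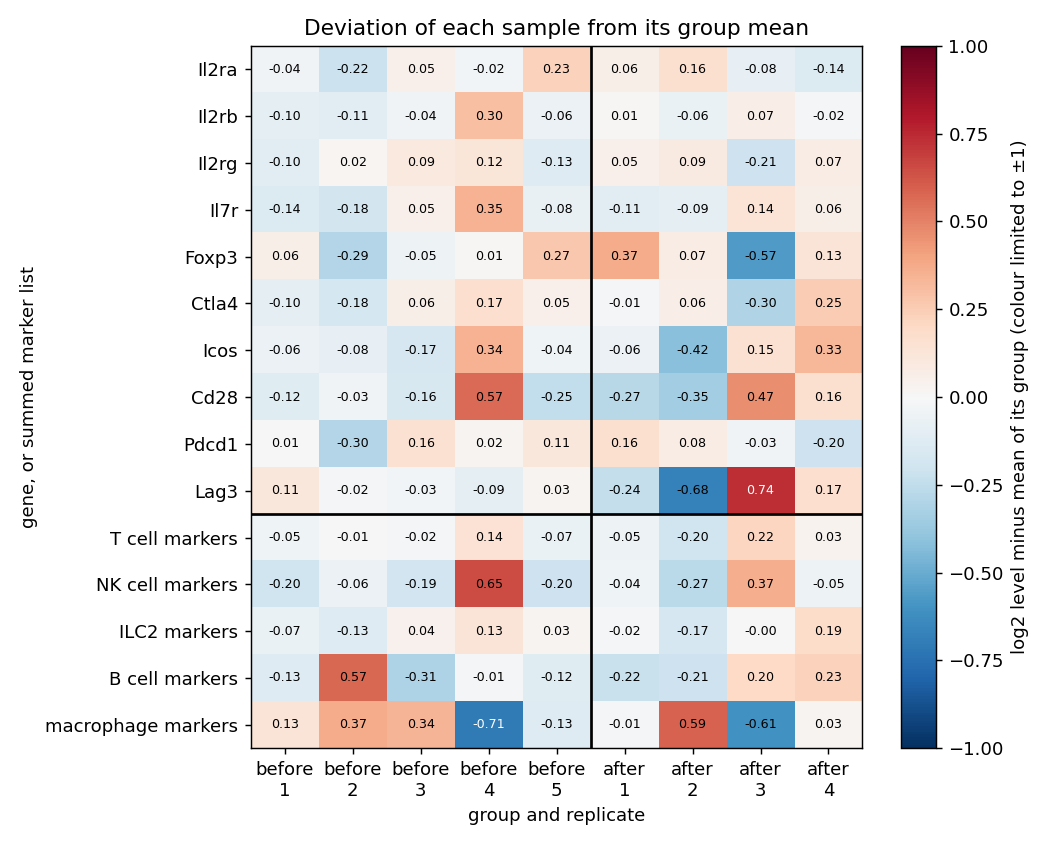
Log2 level of each sample minus the mean of its group (colour and printed value) for the 10 genes and 5 summed marker lists, by group and replicate. Replicate 4 before and replicate 3 after culture are high for Cd28, Il7r, T cell markers and NK cell markers and low for macrophage markers.

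The genes whose deviations from the group means were most like those of 3 of the genes were also listed, as a description over 9 samples from the same libraries. For Foxp3 these were Med6, Gm44066 and Mir7087 (Pearson correlation 0.979, 0.970 and 0.963). For Il7r they were Gm28940, C030034I22Rik and Zmym2 (0.983, 0.979 and 0.975), and for Lag3 Ldlrad4, Gm37289 and Gm20513 (0.960, 0.957 and 0.956). With so few samples 15, 70 and 47 genes had a correlation above 0.9 with Foxp3, Il7r and Lag3, so the order among them is not resolved.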

How the data were processed

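RNA-seq was measured in 9 samples, 5 before and 4 after culture, grouped by their titles. The authors deposited 1 table of genes by samples that holds normalized counts, treated here as a signal. DESeq2 and the build GRCm38 are named in the submitters' processing notes. The aligner, counting tool, annotation, strand setting and filters are not given in the sources used here. Dividing each column by its smallest step gave whole reads for 100% of values (tolerance 0.001), and these reads entered the count models. The 3782 rows without a symbol took 3.87 to 10.9% of reads per sample and entered neither tests nor depths.

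The 18202 genes whose normalized counts averaged at least 10 were fitted in R 4.3.3 by limma 3.58.1 on log2(value + 1), with a term for group alone and a mean-variance trend. Its p-values are two-sided, with Benjamini-Hochberg adjustment across those 18202 genes. The same fit was made relative to the summed Cd3 genes. Alternatives were pseudocounts of 0.5 and 8, no filter or a minimum mean of 50, TMM, upper quartile and quantile scaling, array weights, edgeR 4.0.16 and DESeq2 1.42.0 on the recovered reads, replicate blocks, a correction for GC content and length, and leaving out samples. Leaving out both replicate 4 before and replicate 3 after culture was added after seeing the data. Gene spans and lengths came from GENCODE M21 and start windows from RefSeq, both on GRCm38, and may differ from the annotation the authors used. The 10 genes and all lists were chosen with earlier results of these data known. Named genes are the 10 genes, the up to 4 genes of smallest adjusted p in each pathway list, and genes past the threshold against their list median. The fit was tested on simulated counts in which 200 genes changed 2-fold. At a dispersion (spread between samples beyond counting) of 0.02 it recovered 184 of them, with 6 false calls. At a dispersion of 0.1 it recovered 37, with 1 false call. In the data 12524 genes were called, far more than the 200 changed in the simulation, and the dispersion of the data is not given here. The simulated counts therefore do not give the share of changes recovered in the data. A gene that did not pass may still have changed. Reads carry no molecular identifiers here, so the spread between samples was used as the error. Other tools were Python 3.11.15, NumPy 2.4.6, pandas 2.3.3 and matplotlib 3.10.9.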

Additional observations from a re-analysis of the deposited data

Results flagged for a closer look

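In 41 genes named above, 82 groups of samples were examined for a sample far from the others, and 9 groups held one; chance alone flags about 1 in 20 groups. Before culture, replicate 4 was far above the other 4 samples for Icos (1933 normalized counts), Cd28 (1384), Il2rb (5235) and Cd96 (406), and far below them for Crlf2 (1204) and Il21r (3197). Replicate 1 before culture was far below the others for Entpd1 (4554) and Prdm1 (951). After culture, replicate 3 was far below the other 3 samples for Il2rg (4663). Of these 9 genes Icos and Cd28 were not called, and the other 7 stayed called in the same direction without the sample in question.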

How the results depend on the processing

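The number of genes called ran from 9925 (minimum mean of 50) to 14150 (no filter) over the 23 alternatives, and from 11766 to 12691 when 1 sample was left out. In all of them 4 of the 10 genes were higher, and 3 or 4 were lower, the fourth being Cd28. The sign of Foxp3 turned with array weights (log2 fold change 0.083), levels adjusted for length and GC content (0.29), quantile scaling (0.028), the replicate block by title number (0.021) and without replicate 4 before and replicate 3 after culture (0.15), and ran from −0.17 to 0.14 when 1 sample was left out. Icos was −0.26 with the adjustment for length and GC content and ran from −0.061 to 0.19 when 1 sample was left out. With that adjustment Il4 was −0.17 and Nrp1 −0.030. Relative to Trac, Trbc1 and Trbc2, Foxp3 was 0.19 and Icos 0.29, and relative to the mean of all T cell markers they were 0.031 and 0.13. Relative to the Cd3 genes Foxp3 ran from −0.38 to 0.021 when 1 sample was left out. None of these values passed an adjusted p of 0.05, and the cause was not tested. On the Cd3 scale 3 or 4 genes were higher, and 3 or 4 lower, in the 11 alternatives. The median log2 fold change of all genes relative to the Cd3 genes was −0.18, and 0.24 with Trac, Trbc1 and Trbc2.

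The titles and the library names number the cultured samples differently. Deviations of samples with the same title number had correlations of 0.0807, 0.0796, −0.213 and −0.0403. Those with the same library number had 0.0807, 0.247, 0.349 and 0.0447. A pairing is not stated in the sources used here, and the main fit used none. With the replicate block by title number 11646 genes were called, and by library number 12836, and Cd28 passed in both (adjusted p = 0.0275 and 0.00219). No other of the 10 genes changed its call under either block, while Jak1 and Nrp1 were not called with the block by title number (adjusted p = 0.0603 and 0.0726). Each cultured sample had its highest correlation with the uncultured sample of its own library number, while replicate 5 before culture did not. Depth limits the genes with few reads, such as Il2, whose values are within a few reads.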

Other observations

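Flicr, a noncoding gene that overlaps Foxp3 on the same strand and was chosen here after its values were seen, had normalized counts of 33.3, 45.8, 37.0, 36.0 and 39.4 before and 90.1, 59.1, 79.2 and 44.1 after culture. The groups overlapped at replicate 2 before and replicate 4 after culture, and the mean was 38.3 ± 4.71 before and 68.1 ± 20.5 after (SD, n = 5 and n = 4; log2 fold change 0.77, SE 0.227, limma adjusted p = 0.00820, and 0.00209 to 0.0358 when 1 sample was left out). It was therefore called higher, and Foxp3 was not called, though the difference between these genes was not tested. Of the windows of the longest Foxp3 transcript, 3.22% occur in other genes, most of all in Flicr.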
